A study of Mus musculus with 23 samples.

Results

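Gtpbp2, Trib3, Atf4, Atf3, Ddit3, Chac1, Asns, Psat1, Phgdh and Mthfd2, 10 genes of the ATF4 arm of the integrated stress response, were followed in the proximal small intestine of mice that were fasted, refed or given doxorubicin. They were chosen by symbol as established targets of the transcription factor ATF4 or as ATF4 itself, and they are 10 of the 16259 genes in the expression table. Of the 10 genes, 9 averaged 10 normalized reads or more and entered the tests, which covered 11939 genes. Chac1 did not and is given as values only. Gtpbp2 was higher after doxorubicin in ad libitum fed mice and, at matched hours, in refed mice. In refed mice the difference passed the test at 2 h but not at 6 h. It also passed over both hours pooled, a comparison added after the data were seen. Of these Gtpbp2 calls, only that at 12 h in ad libitum mice held whichever libraries were left out. Trib3 was higher after doxorubicin in ad libitum fed mice, and in refed mice at matched hours its difference did not pass the test. Untreated ad libitum libraries were at 0 h only, so drug and hour of harvest cannot be told apart there. The other 7 tested genes, Atf4 included, passed the test in none of the 16 comparisons made.

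The integrated stress response starts when one of several kinases, among them GCN2 (amino acid shortage) and PERK (misfolded protein in the endoplasmic reticulum), phosphorylates the translation factor eIF2alpha. General protein synthesis then slows while the Atf4 mRNA is translated more, so ATF4 protein can change without a change of its mRNA, and mRNA is all that was measured here. ATF4 switches on genes for amino acid uptake and synthesis, tRNA charging and redox balance, and, with CHOP (Ddit3) and ATF3, genes linked to cell death, while TRIB3 binds ATF4 and restrains it.

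Poly-A RNA of whole proximal small intestine was sequenced in 23 libraries, 11 from Ddit4-/- and 12 from wild-type male mice. Of these libraries, 15 came after an intraperitoneal injection of doxorubicin at 20 mg/kg, an anthracycline that damages DNA, and 8 were untreated. The doxorubicin groups were ad libitum fed mice at 2 h (wild type only), 6, 12 and 24 h, and mice fasted for 24 h and then refed for 2, 6, 12 and 24 h, the hours of refeeding being the hours after the drug. The untreated groups were ad libitum fed mice at 0 h, mice fasted for 24 h at 0 h, and fasted mice refed for 2 and 6 h. These make 12 states of feeding, drug and time. Each state held 1 library per genotype, so the genotypes stood in for replicates, strain and age were not given in the labels used here, and no untreated ad libitum library was matched to the later hours.

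Libraries held 11418115 to 23428519 reads on genes, and enterocyte markers summed to 395019 to 930276 normalized reads in every library. Ddit4, the deleted gene and itself a stress-induced inhibitor of mTORC1, had 0 to 16 reads in Ddit4-/- libraries (0 in 7 of 11) and 48 to 399 in wild-type libraries. Some libraries went against their labels or stood apart. The 4 wild-type libraries refed after doxorubicin carry "untreated" in their titles and doxorubicin in their drug label, and the drug label was used. The untreated Ddit4-/- libraries that were ad libitum fed, fasted or refed for 2 h, 3 in all, had almost no reads on Y-linked genes although labelled male. The fasted Ddit4-/- and the untreated wild-type 6 h refed libraries, 2 in all, held pancreatic acinar transcripts (sums of 61933 and 162537 normalized reads, against at most 3418 in the others). Normalized reads are the deposited gene counts divided by 1 size factor per library.

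ATF4 binds composite sites known as CAREs. A search of the 250 bases upstream of the RefSeq start (GRCm38.p6) for TGATGNAA, on both strands, covered 11 promoter windows of the 10 genes. It found a match in Atf3, Chac1 and Asns, 3 of the 10 genes, against 3.45% of 32851 mouse promoters, a share of promoters rather than of genes. The motif is in capitals below, on the strand of the gene, where TTGCATCA is its reverse complement; the windows are chr1:191183425-191183454 (Atf3, minus strand gene), chr2:119351038-119351067 (Chac1, plus strand gene) and chr6:7693214-7693243 (Asns, minus strand gene).
Atf3: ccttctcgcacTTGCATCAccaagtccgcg
Chac1: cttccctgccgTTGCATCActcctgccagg
Asns: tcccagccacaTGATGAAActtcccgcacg
The Atf3 match lies 110 bases, the Chac1 match 193 bases and the Asns match 23 bases upstream of the start. The 3 genes with these letters were not the ones that passed a test: Gtpbp2 and Trib3 held none in this window, which says nothing of sites elsewhere. The cAMP response element TGACGTCA was found in none of the 11 windows, so it overlapped none of these matches, and in 1.55% of all promoters.

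Per length, Atf4 was the most abundant of the 10 genes, with a mean level of 1161 normalized reads per kilobase of exon over the 23 libraries. Gtpbp2 followed at 356, Atf3 at 248, Trib3 at 230.5, Ddit3 at 156, Asns at 94.6, Mthfd2 at 24.8, Phgdh at 16.3, Psat1 at 11.2 and Chac1 at 3.94 normalized reads per kilobase. The amino acid and one-carbon enzymes were thus the scarce end of the group, and the counting error of Phgdh, Psat1 and Chac1 is correspondingly large. Phgdh also has 9 processed pseudogenes that match its transcript at 95.3% to 98.7% identity, and how reads were split among them is not known, so its values are uncertain. Ddit3 shares 68 exonic bases with Mars1 on the opposite strand, and the libraries did not keep strand.

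**Figure D1:**
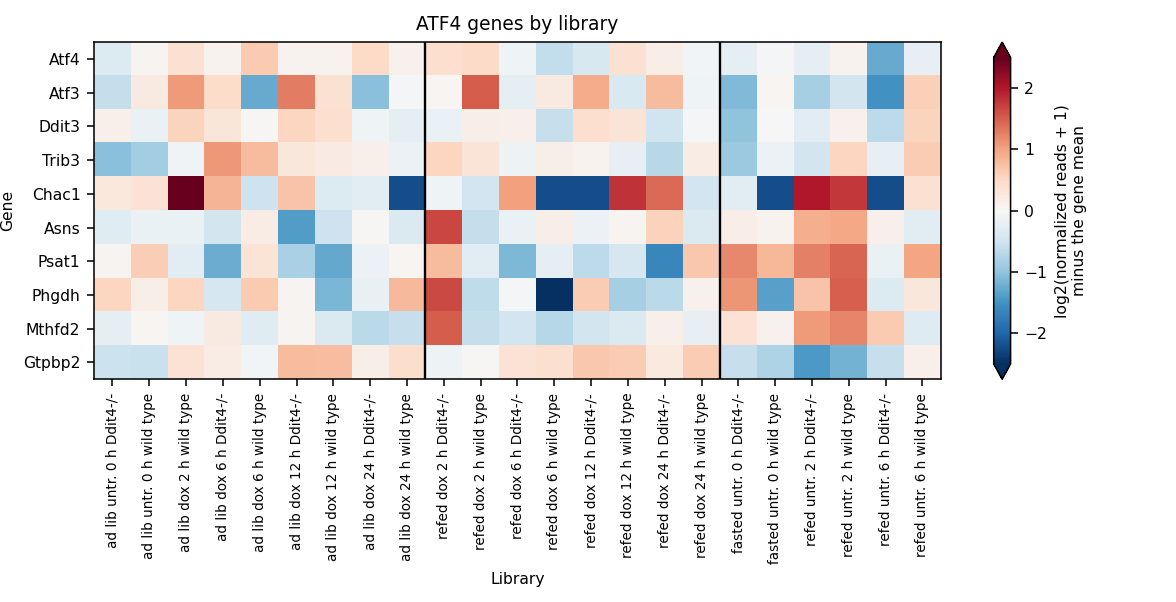
Level of each of the 10 genes (rows) in each of the 23 libraries (columns), as log2(normalized reads + 1) minus the mean of that gene, from blue (low) to red (high); lines separate ad libitum doxorubicin libraries with their untreated 0 h controls, refed doxorubicin libraries, and fasted and refed untreated libraries. Gtpbp2 is red in both 12 h doxorubicin pairs and blue in 7 of the 8 untreated columns, while Asns and Mthfd2 are reddest in the untreated 2 h refed columns and in the Ddit4-/- library refed 2 h after doxorubicin.

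Gtpbp2, which encodes a GTPase that rescues stalled ribosomes, was higher with doxorubicin under both feeding schedules. The gene lies at chr17:46161032-46169370 on the plus strand (GRCm38). In ad libitum mice after doxorubicin it stood at 2246 normalized reads at 2 h (wild type only), at 1969 in Ddit4-/- and 1661 in wild type at 6 h, at 3020 and 2992 at 12 h, and at 1935 and 2378 at 24 h, in the same order of genotypes. The untreated ad libitum libraries stood at 1198 in Ddit4-/- and 1179 in wild type. All 7 doxorubicin libraries thus lay above both untreated ones, with the highest pair at 12 h. The difference passed the test at 12 h (log2 difference 1.34 ± 0.20 SE, adjusted p = 0.00122) and at 24 h (0.85 ± 0.20, adjusted p = 0.0299), by limma's moderated test with Benjamini-Hochberg adjustment over all genes, as for every adjusted p here. At 2 h (0.86 ± 0.25, adjusted p = 0.163) and 6 h (0.61 ± 0.20, adjusted p = 0.153) it did not. Taken over 6 to 24 h, Gtpbp2 averaged 2326 ± 574 (SD, n = 6) after doxorubicin and 1188 ± 13.4 (n = 2) untreated, a log2 difference of 0.93 ± 0.16 with an adjusted p of 0.00345.

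The refed mice gave the same comparison at matched hours. Gtpbp2 stood at 1601 in Ddit4-/- and 1788 in wild type 2 h after doxorubicin, against 643 and 771 in untreated mice refed for 2 h. At 6 h it stood at 2242 in Ddit4-/- and 2288 in wild type with doxorubicin, against 1163 and 1909 without. The doxorubicin library was the higher in 4 of 4 pairs of the same genotype and hour, and the overlap of the groups came from the untreated wild-type 6 h library, one of the pair with pancreatic transcripts. Gtpbp2 rose by a log2 of 1.26 ± 0.20 at 2 h (adjusted p = 0.0347), by 0.93 ± 0.14 over both hours (adjusted p = 0.0147), and differed by 0.60 ± 0.20 at 6 h, where the adjusted p was 0.239. Without the untreated wild-type 6 h library, Gtpbp2 passed at 6 h too. In refed doxorubicin mice at 12 h it was at 2765 in Ddit4-/- and 2724 in wild type, and at 24 h at 2062 and 2706, hours with no untreated refed library.

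Counts among the 9 genes are set here against the share of all genes that passed. Over 6 to 24 h of doxorubicin in ad libitum mice, 2 of the 9 genes passed the test, Gtpbp2 and Trib3, and 8.24% of all genes did. The share of all genes that passed was 0.067% at 2 h, where none of the 9 genes passed, 1.34% at 6 h (1 of 9, Trib3), 9% at 12 h (Gtpbp2 and Trib3) and 3.11% at 24 h (1 of 9, Gtpbp2). In refed mice 1 of 9, Gtpbp2, passed at 2 h, against 0.0335% of all genes, and over both hours, against 0.628% of all genes. At 6 h limma called 0 of 9, as edgeR and DESeq2 did, and 0% of all genes, with Gtpbp2 alone at an unadjusted p under 0.05. Atf4, Trib3 and Gtpbp2, 3 of 9, were higher in all 7 ad libitum doxorubicin libraries than in both untreated ones, a pattern that 11.5% of all genes showed. None of the 9 did so in the 4 refed doxorubicin libraries against the 4 untreated ones, against 2.31% of all genes.

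Single libraries decided several of these calls, while the sizes stayed close. The 24 h call of Gtpbp2 was lost without any one of the 4 libraries compared, while the 12 h call held whichever library was left out. The call at 2 h of refeeding was lost without the wild-type doxorubicin library or either untreated one of that hour, and also without either untreated ad libitum library or either ad libitum 12 h doxorubicin library, with log2 differences of 1.19 to 1.34 throughout. Over both refed hours it was lost without the wild-type doxorubicin 2 h library or either untreated 2 h library, with 0.77 to 1.10 over all libraries left out in turn. Without the 4 libraries whose titles disagree with their drug label it was 1.24 at 2 h (adjusted p = 0.113) and 0.94 over both hours (adjusted p = 0.0999).

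**Figure D2:**
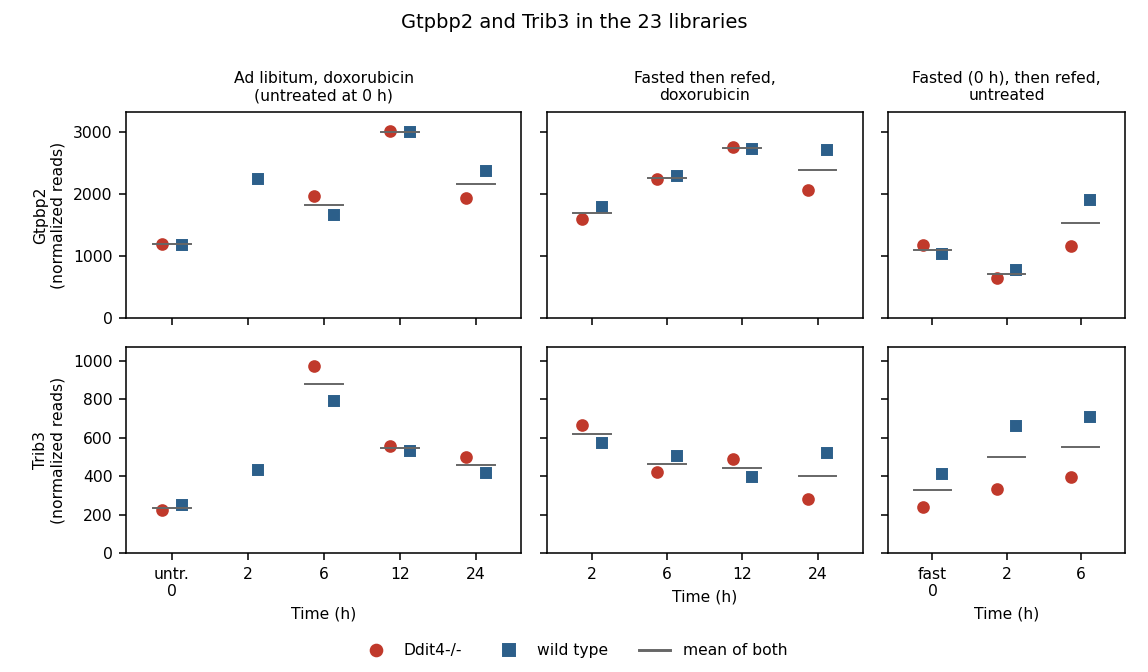
Normalized reads (vertical axes, from 0) of Gtpbp2 (top) and Trib3 (bottom) by hour in the 3 sets of libraries; circles are Ddit4-/-, squares wild type, 1 library each, and grey lines the mean where both exist. Gtpbp2 peaks at 3020 and 2992 at 12 h of doxorubicin in ad libitum mice and is lowest, at 643 and 771, in untreated mice refed for 2 h; Trib3 is lowest in untreated ad libitum mice and highest 6 h after doxorubicin.

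Without drug, Gtpbp2 also moved with refeeding. It stood at 643 in Ddit4-/- and 771 in wild type after 2 h of refeeding, the lowest 2 of all 23 libraries, against 1174 and 1027 in fasted mice, and this difference did not pass (log2 -0.64 ± 0.20, adjusted p = 0.266). At 6 h of refeeding it averaged 1536 ± 528, against 707 ± 90.8 at 2 h (SD, n = 2 each), and it rose by a log2 of 1.08 ± 0.20 (adjusted p = 0.00729). It was the 1 gene of 9 to pass between these hours, against 9% of all genes. The call was lost without either 2 h library (1.0 without the Ddit4-/- one, 1.16 without the wild-type one). Without the 2 libraries with pancreatic transcripts the log2 difference was 0.77 and still passed.

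Trib3, a pseudokinase that binds ATF4 and the kinase AKT, lies at chr2:152337422-152344032 on the minus strand (GRCm38). After doxorubicin in ad libitum mice it stood at 432 normalized reads at 2 h, at 974 in Ddit4-/- and 788 in wild type at 6 h, at 558 and 531 at 12 h, and at 498 and 416 at 24 h, against 221 and 249 in untreated mice, Ddit4-/- first in each pair. All 7 values lay above both untreated ones, and the 6 h values were the highest 2 of all 23 libraries. Trib3 rose at 6 h by a log2 of 1.90 ± 0.33 (adjusted p = 0.0111), 3.72-fold, at 12 h by 1.21 ± 0.33 (adjusted p = 0.0319) and over 6 to 24 h by 1.35 ± 0.27 (adjusted p = 0.00777). At 24 h it differed by 0.95 ± 0.33, with an adjusted p of 0.122. The 6 h call was lost without the Ddit4-/- 6 h library or either untreated library (1.59 to 1.94), the 12 h call without any one of the 4 libraries compared (1.03 to 1.39), and the 6 to 24 h call without either untreated one (1.31 and 1.40). Without an untreated ad libitum library at those hours, the drug and the hour of harvest cannot be told apart in these values, nor in those of Gtpbp2 under ad libitum feeding.

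Where the hours were matched, Trib3 showed little difference. In refed mice it stood at 663 in Ddit4-/- and 573 in wild type 2 h after doxorubicin, against 333 and 662 without the drug. At 6 h it stood at 421 in Ddit4-/- and 504 in wild type with doxorubicin, against 396 and 709 without. The library at 709 is one of the pair with pancreatic transcripts. The groups overlapped, and over both hours the log2 difference was 0.10 ± 0.23 (95% interval -0.40 to 0.59, adjusted p = 0.884). At 6 h of refeeding without drug Trib3 averaged 552 ± 221, against 326 ± 123 in fasted mice (SD, n = 2 each), a log2 difference of 0.75 ± 0.33 whose adjusted p was 0.169.

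Among genes averaging 50 or more normalized reads, 5 had the patterns most like that of Trib3 over the 23 libraries, with nearly equal correlations. They were Dbp, an output gene of the circadian clock (Pearson's r = 0.74 on the log2 scale), Slc20a1 (0.73), Plekhh3 (0.73), Mafg (0.72) and Slc16a5 (0.72). These libraries share feeding and hour, and the genes were looked up after the values of Trib3 were seen. Dbp stood at 1456 in Ddit4-/- and 2129 in wild type 6 h after doxorubicin in ad libitum mice, against 5.64 and 51.6 in untreated mice. Its part in the Trib3 difference was not tested.

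The transcription factors themselves varied without passing the test. Atf4 was at 3448 normalized reads 2 h after doxorubicin in the ad libitum wild type, at 2805 in Ddit4-/- and 4135 in wild type at 6 h, at 2797 and 2809 at 12 h, and at 3712 and 2831 at 24 h. The untreated ad libitum libraries were at 2068 in Ddit4-/- and 2769 in wild type, so every doxorubicin library lay above both, the lowest at 2797 just above the wild-type 2769. The log2 difference over 6 to 24 h was 0.39 ± 0.24 (95% interval -0.12 to 0.90, adjusted p = 0.346). In refed mice over 2 and 6 h Atf4 averaged 2846 ± 941 with doxorubicin and 2114 ± 719 without (SD, n = 4 each), a log2 difference of 0.44 ± 0.21 with an adjusted p of 0.332. The lowest Atf4 value, 1104, was that of the untreated Ddit4-/- library refed for 6 h, which also had the lowest Atf3.

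Atf3, a repressor of the same family that is induced early by many stresses, ranged 8.25-fold, between 160 and 1318 normalized reads. Its highest values were 1318 in the wild-type library refed for 2 h after doxorubicin, 1111 in the Ddit4-/- ad libitum library 12 h after doxorubicin and 965 in the wild-type ad libitum library 2 h after it. The partner of each at the same feeding and hour, where there is one, was far lower, at 472 in Ddit4-/- refed for 2 h and 599 in wild type at 12 h. In refed mice over 2 and 6 h Atf3 averaged 679 ± 429 with doxorubicin and 359 ± 231 without (SD, n = 4 each), a log2 difference of 0.95 ± 0.50 whose 95% interval ran between -0.12 and 2.01 (adjusted p = 0.392). The spread between genotypes was thus as large as the difference between drug groups.

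Ddit3, which encodes the pro-apoptotic factor CHOP, had the narrowest range, between 128 in the fasted Ddit4-/- library and 381 in the untreated wild-type library refed for 6 h, a 2.97-fold range. Both ends of this range are the libraries with pancreatic transcripts. Ddit3 averaged 242 ± 52.7 in refed mice with doxorubicin and 259 ± 94.0 without, over 2 and 6 h (SD, n = 4 each). The untreated mean includes the library at 381. Over 6 to 24 h in ad libitum mice it averaged 294 ± 62.9 (n = 6) after doxorubicin and 255 ± 38.3 (n = 2) untreated. The 95% intervals of the log2 differences were -0.61 to 0.50 in refed and -0.46 to 0.82 in ad libitum mice.

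**Figure D3:**
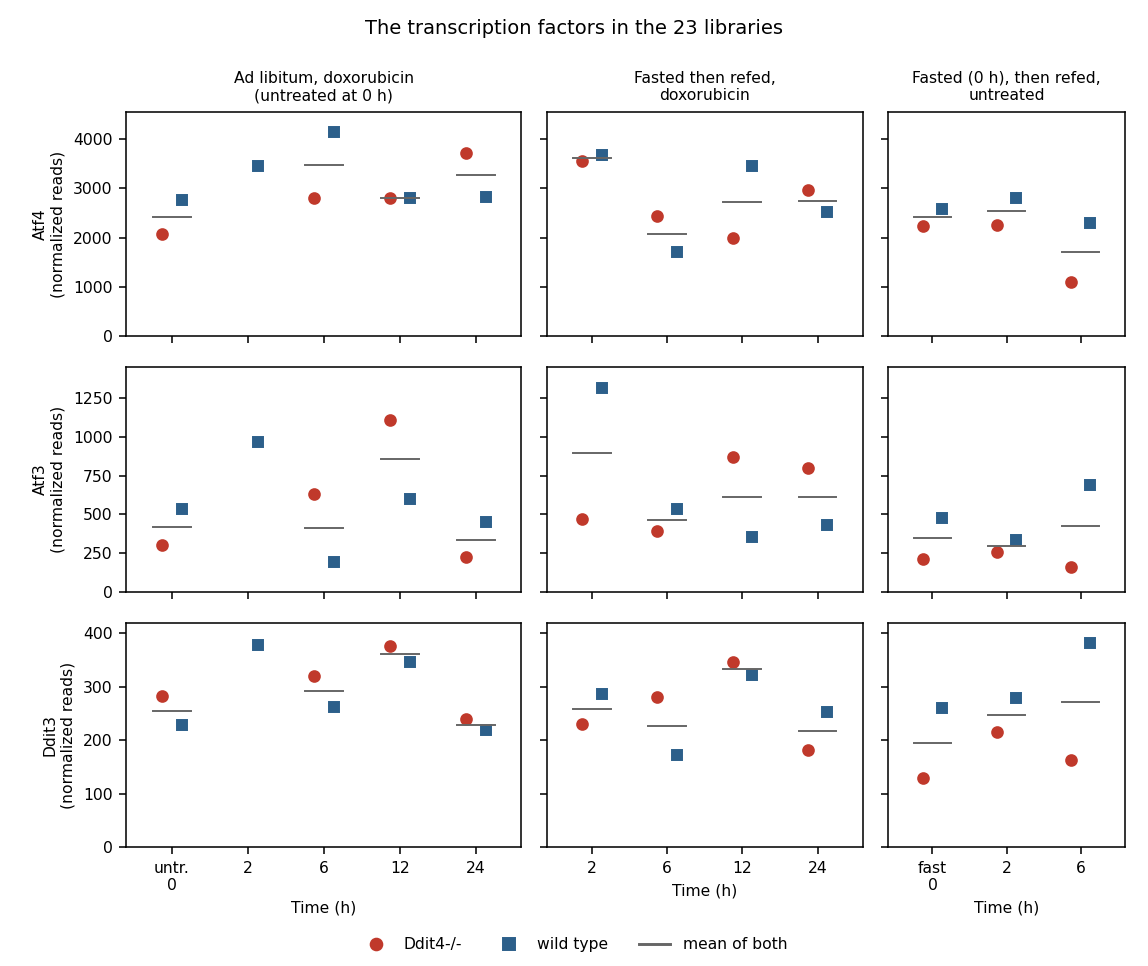
Normalized reads (vertical axes, from 0) of Atf4, Atf3 and Ddit3 by hour in the 3 sets of libraries; circles are Ddit4-/-, squares wild type, 1 library each, and grey lines the mean where both exist. The genotypes of one state often lie further apart than the means of neighbouring hours, most of all for Atf3, which spans 160 to 1318.

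Chac1, a gamma-glutamyl cyclotransferase that degrades glutathione, had 157 reads in all 23 libraries together and none in 5 of them. The ad libitum wild-type library 2 h after doxorubicin held 34.2 normalized reads (36 reads), and the untreated libraries refed for 2 h held 17.6 in Ddit4-/- and 14.8 in wild type. The wild-type library refed for 12 h after doxorubicin held 15.2, and every other library was at 11.3 or lower. Such counts give no test, and the high 2 h doxorubicin library has no Ddit4-/- partner.

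Without drug, Asns, Mthfd2 and Psat1 were higher after 2 h of refeeding than in fasted mice, though none passed the test and the pattern was common among all genes. Asns, which makes asparagine, was at 444 normalized reads in Ddit4-/- and 460 in wild type at 2 h, against 263 and 250 in fasted mice. Mthfd2, a mitochondrial one-carbon enzyme, was at 165 in Ddit4-/- and 184 in wild type, against 101 and 84.5 in fasted mice. Psat1, the second enzyme of serine synthesis, was at 97.5 in Ddit4-/- and 111 in wild type, against 92.8 and 71.5. All 3 genes were higher in both refed libraries than in both fasted ones, a pattern that 23.1% of all genes showed. For Asns and Mthfd2 only 1 of the 23 libraries, the Ddit4-/- library refed 2 h after doxorubicin, was higher. Phgdh, the first enzyme of serine synthesis, was at 54.4 in Ddit4-/- and 95.2 in wild type, against 72.2 and 12.2 in fasted mice, and here the groups overlapped. The overlap came from the fasted Ddit4-/- library, one of the pair with pancreatic transcripts.

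None of these differences passed the test against fasted mice. The log2 differences were 0.82 ± 0.51 for Asns (adjusted p = 0.730), 0.91 ± 0.47 for Mthfd2 (adjusted p = 0.631), 0.35 ± 0.65 for Psat1 and 1.23 ± 0.96 for Phgdh. Limma, edgeR and DESeq2 each called 0 of the 9 genes, against 0.251% of all genes by limma; at an unadjusted p under 0.05 limma gave 1 of the 9, Gtpbp2. The standard errors come from all 12 states, among them the refed doxorubicin 2 h state, where the genotypes were far apart. After 6 h of refeeding Asns stood at 256 in Ddit4-/- and 192 in wild type, and Mthfd2 at 123 and 61.9, below the 2 h values of both genotypes. Against 2 h, the log2 differences were -1.02 ± 0.51 for Asns, -0.99 ± 0.47 for Mthfd2, -0.95 ± 0.65 for Psat1 and -1.14 ± 0.96 for Phgdh, with adjusted p-values of 0.185 to 0.481.

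Against fasted mice, the 6 h refed libraries gave no call among the 9 genes, by limma, edgeR or DESeq2, where 7.02% of all genes passed with limma; Trib3 and Gtpbp2 had an unadjusted p under 0.05, and Gtpbp2 passed without the Ddit4-/- 6 h library. Fasting itself gave none either by limma, edgeR or DESeq2, adjusted or at an unadjusted p under 0.05, against 0.343% of all genes with limma. Asns averaged 257 ± 9.77 in fasted and 200.5 ± 13.7 in ad libitum mice, and Psat1 82.2 ± 15 and 51.6 ± 13.9 (SD, n = 2 each). Both were higher in fasted mice in 2 of 2 genotypes, and the 95% intervals of the log2 differences ran between -0.73 and 1.44 for Asns and between -0.71 and 2.06 for Psat1.

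Cell type markers also differed between the 2 h refed and the fasted libraries, though no marker passed the test between them. The 6 Paneth cell markers summed to 22805 normalized reads in Ddit4-/- and 52732 in wild type at 2 h of refeeding without drug, against 16528 and 9475 in fasted mice. At 6 h they summed to 3080 in Ddit4-/- and 6412 in wild type. Untreated ad libitum libraries had sums of 21128 in Ddit4-/- and 26742 in wild type, with Asns at 191 and 210. The 5 fat markers summed to 1616 in Ddit4-/- and 682 in wild type at 2 h of refeeding, against 27.2 and 0 in fasted mice. Other marker sets were lower at 2 h than in fasted mice, with median log2 differences of -1.59 for B cell, -0.44 for T cell and -6.16 for pancreatic acinar markers. The medians were 0.47 for smooth muscle and -0.01 for enterocyte markers. The fasted Ddit4-/- library is one of the pair with pancreatic transcripts. In whole tissue, fewer cells of a type and less RNA per cell cannot be told apart, and the part of these markers in the enzyme levels was not tested.

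**Figure D4:**
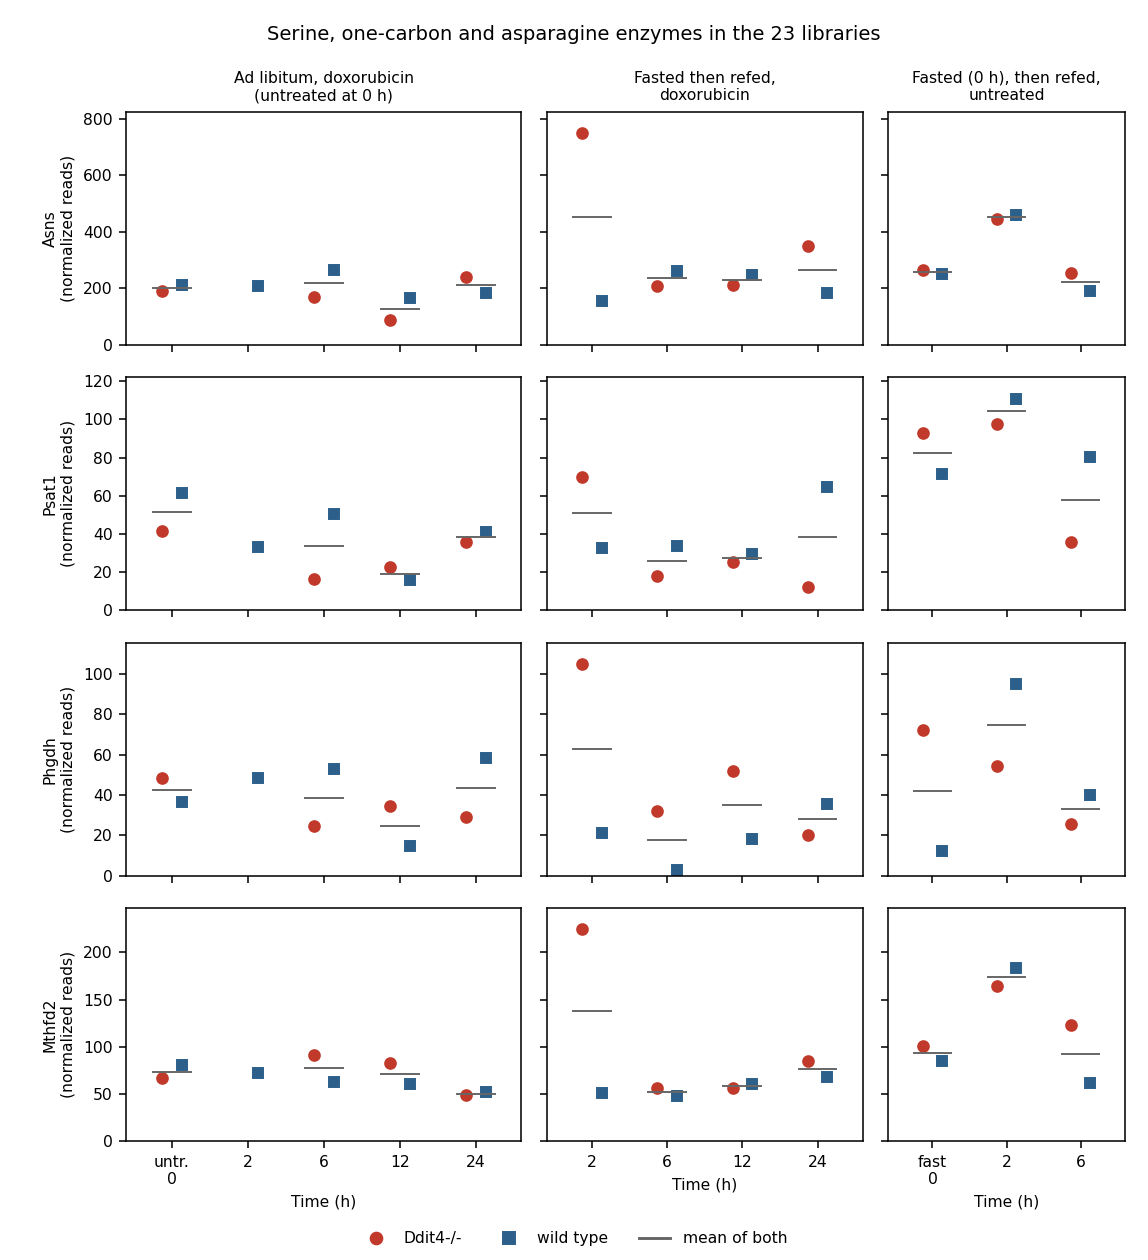
Normalized reads (vertical axes, from 0) of Asns, Psat1, Phgdh and Mthfd2 by hour in the 3 sets of libraries; circles are Ddit4-/-, squares wild type, 1 library each, and grey lines the mean where both exist. In the right-hand panels the 2 h refed points are the highest of Asns, Psat1 and Mthfd2, and in the middle panels the Ddit4-/- library refed 2 h after doxorubicin stands far above its wild-type partner, at 750 against 155 for Asns.

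With doxorubicin, the genotypes parted at 2 h of refeeding. Asns was at 750 normalized reads in the Ddit4-/- library, the highest of all 23, and at 155 in the wild-type library, the second lowest. Mthfd2 was at 224 in Ddit4-/- and 51.3 in wild type, Phgdh at 105 and 21, and Psat1 at 69.7 and 32.7. The Ddit4-/- library ranked first of 23 for Asns, Mthfd2 and Phgdh. In the untreated pair at the same hour, the Ddit4-/- values of all 4 genes lay below the wild-type values. The log2 differences there were -0.05 for Asns, -0.16 for Mthfd2, -0.18 for Psat1 and -0.80 for Phgdh. In that pair 0 of the 9 tested members were higher in Ddit4-/-, against 5486 of all 11939 genes tested. Its Ddit4-/- library is one that lacks Y-linked reads. Each pair is 1 library per genotype, and the doxorubicin pair was singled out after its values were seen. The wild-type doxorubicin library carries a title that disagrees with its drug label, so no test is given.

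Other lists of the pathway differed in this pair to unequal degrees. Of the 9 tested members, 5 were higher in the Ddit4-/- library, as were 3 of 7 amino acid transporters (median log2 difference -0.05), 5 of 13 genes of the eIF2alpha pathway (-0.10), 8 of 14 endoplasmic reticulum chaperones (0.11), 5 of 7 amino acid and one-carbon enzymes (0.18) and 10 of 13 regulators and secreted factors (0.57). Of 14 tRNA synthetase and export genes known as ATF4 targets, 13 were higher in the Ddit4-/- library refed 2 h after doxorubicin than in its wild-type partner, with a median log2 difference of 0.78. Of all genes tested, 51.0% were higher, with a median of 0.01. Of 7 synthetase genes not known as ATF4 targets, 7 were higher as well, with a median of 0.43. The Paneth markers summed to 29083 in the Ddit4-/- library and 7898 in the wild-type one, and the enterocyte markers to 395019 and 536009. Median log2 differences were 1.78 for B cell and 1.77 for fat markers. They were -0.16 for T cell, -0.41 for smooth muscle and -0.06 for pancreatic acinar markers. The part of these markers was not tested.

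With the drug, Psat1 and Mthfd2 had lower means in refed mice, but neither passed the test. Psat1 was lower with doxorubicin in 4 of 4 pairs over 2 and 6 h, with 38.4 ± 22 normalized reads against 81.1 ± 32.8 without (SD, n = 4 each). The log2 difference was -1.10 ± 0.46 (adjusted p = 0.271). Mthfd2 was lower in 3 of 4 pairs, with a log2 difference of -0.72 ± 0.33 (adjusted p = 0.315). In ad libitum mice over 6 to 24 h, Psat1 averaged 30.4 ± 14.3 (n = 6) after doxorubicin and 51.6 ± 13.9 (n = 2) untreated, with a log2 difference of -0.85 ± 0.53 (adjusted p = 0.351).

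Other genes of the pathway were counted in lists. In untreated mice refed for 6 h against 2 h, 8 of 14 endoplasmic reticulum chaperone genes controlled by ATF6 and XBP1 fell and none rose, with a median log2 difference of -0.64, against -0.05 over all genes, of which 9% passed in either direction. The 6 with the smallest p were Pdia4 (-1.62 ± 0.26), Manf (-1.45 ± 0.24), Hyou1 (-0.95 ± 0.16), Pdia6 (-1.29 ± 0.22), Creld2 (-1.29 ± 0.23) and Hspa5 (-1.07 ± 0.21), the last being BiP, the main chaperone of that compartment. Of 14 tRNA synthetase and export genes, 3 fell, Gars, Iars and Vars, with -0.77 ± 0.23, -1.14 ± 0.33 and -1.81 ± 0.49. Of 7 other synthetases, 3 fell, Farsa, Kars and Rars. Of 13 genes of the eIF2alpha pathway, 1 rose, the kinase gene Eif2ak2 (1.02 ± 0.22). No gene passed among 7 amino acid transporters, 7 amino acid and one-carbon enzymes or 13 regulators and secreted factors. Of the 6 Paneth markers, 4 fell between the same hours, with a median of -3.12, as did 3 of 4 fat markers, with a median of -6.52. The 9 pancreatic acinar markers had a median of 6.24 with none passing. The untreated wild-type 6 h library is one of the pair with pancreatic transcripts. No B cell, T cell, smooth muscle or enterocyte marker passed. The part of all these markers in these counts was not tested.

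In ad libitum mice over 6 to 24 h after doxorubicin, where 8.24% of all genes passed, single genes of most lists did so too. The transporter subunit gene Slc3a2 rose (0.78 ± 0.18), 1 of 7 transporters. Aldh18a1, an enzyme of proline synthesis, fell (-1.91 ± 0.30), 1 of 7 enzymes. Herpud1, a gene of protein degradation at the endoplasmic reticulum, rose (1.11 ± 0.26), 1 of 13 regulators and secreted factors. Among the ATF4-linked synthetases Iars fell (-1.04 ± 0.27), 1 of 14, and among the other synthetases Dars, Farsb and Kars fell, 3 of 7. Eif2b4, a subunit of the exchange factor of eIF2, fell (-0.73 ± 0.17), 1 of 13, and Pdia6 fell (-0.99 ± 0.18), 1 of 14 chaperones. Of the 6 Paneth markers, 2 fell in the same comparison (median -1.69), as did 1 of 3 smooth muscle markers (median -1.69), while the 4 tested fat markers had a median of 2.82 with none passing. Paneth marker sums were 4125 to 13499 normalized reads in the 7 ad libitum doxorubicin libraries, against 21128 and 26742 in the untreated ones, and the part of these markers in the differences of the lists or of Gtpbp2 and Trib3 was not tested. In refed mice over 2 and 6 h with doxorubicin, where 0.628% of all genes passed, Sesn2, a stress-induced regulator of mTORC1, rose (0.94 ± 0.18), 1 of 13, and the chaperone genes Pdia4 and Hyou1 fell, 2 of 14. No gene of the other 5 lists passed there.

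Fasting before the drug gave no call among the 9 genes. In 7 pairs of doxorubicin libraries matched for genotype and hour, Gtpbp2 averaged 2368 ± 377 in prefasted and 2314 ± 525 in ad libitum mice (SD, n = 7 each), a log2 difference of 0.05 ± 0.10 with a 95% interval between -0.17 and 0.27. Trib3 averaged 455 ± 97.4 in prefasted and 599.6 ± 206 in ad libitum mice and was lower in 5 of 7 pairs, with a log2 difference of -0.37 ± 0.18 (adjusted p = 0.754). Ddit3 was lower in 6 of 7 pairs (-0.23 ± 0.13, adjusted p = 0.754), and Atf4 in 5 of 7 (-0.29 ± 0.15, adjusted p = 0.754). Limma called 0% of all genes, with 766 genes at an unadjusted p under 0.05 and none of the 9 among them; edgeR called 0 and DESeq2 21 genes, again none of the 9. The difference of this effect between 12 and 24 h and between 2 and 6 h gave 0 calls by limma, 2 by edgeR and 22 by DESeq2 over all genes (671 at an unadjusted p under 0.05 by limma, 0% called), none of them among the 9.

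The loss of Ddit4 gave no call among the other ATF4 genes either, by limma, edgeR or DESeq2, adjusted or at an unadjusted p under 0.05, where 0.578% of all genes passed with limma. Gtpbp2 averaged 1797 ± 726 in Ddit4-/- (n = 11) and 1972 ± 713 in wild type (n = 12), with a 95% interval of the log2 difference between -0.30 and 0.06. The wild-type means here include the ad libitum doxorubicin library of 2 h, which has no Ddit4-/- partner, while 11 states held both genotypes. Mthfd2 averaged 99.95 ± 53.3 in Ddit4-/- and 73.8 ± 36.5 in wild type and was higher in 7 of 11 states (0.39 ± 0.20, adjusted p = 0.465). Whether the genotype effect differed between doxorubicin and untreated mice was tested as an interaction, and limma and edgeR called 0 genes (0%), DESeq2 7, none of the 9. Limma gave 497 genes an unadjusted p under 0.05, among them Trib3 (0.69 ± 0.24), Atf3 (1.38 ± 0.55) and Ddit3 (0.65 ± 0.29), each with an adjusted p of 0.979. Among untreated libraries 3 genes, Trib3, Atf3 and Atf4, were each lower in Ddit4-/- than in wild type in 4 of 4 states. Of those 4 Ddit4-/- libraries, 3 are the ones that lack Y-linked reads. The other tested genes had no such uniform direction. Ddit3 was higher in Ddit4-/- in untreated ad libitum mice (log2 0.31) and Asns in untreated mice refed for 6 h (0.41). These 3 genes were singled out by their values, and how many of all genes share the pattern was not counted.

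**Figure D5:**
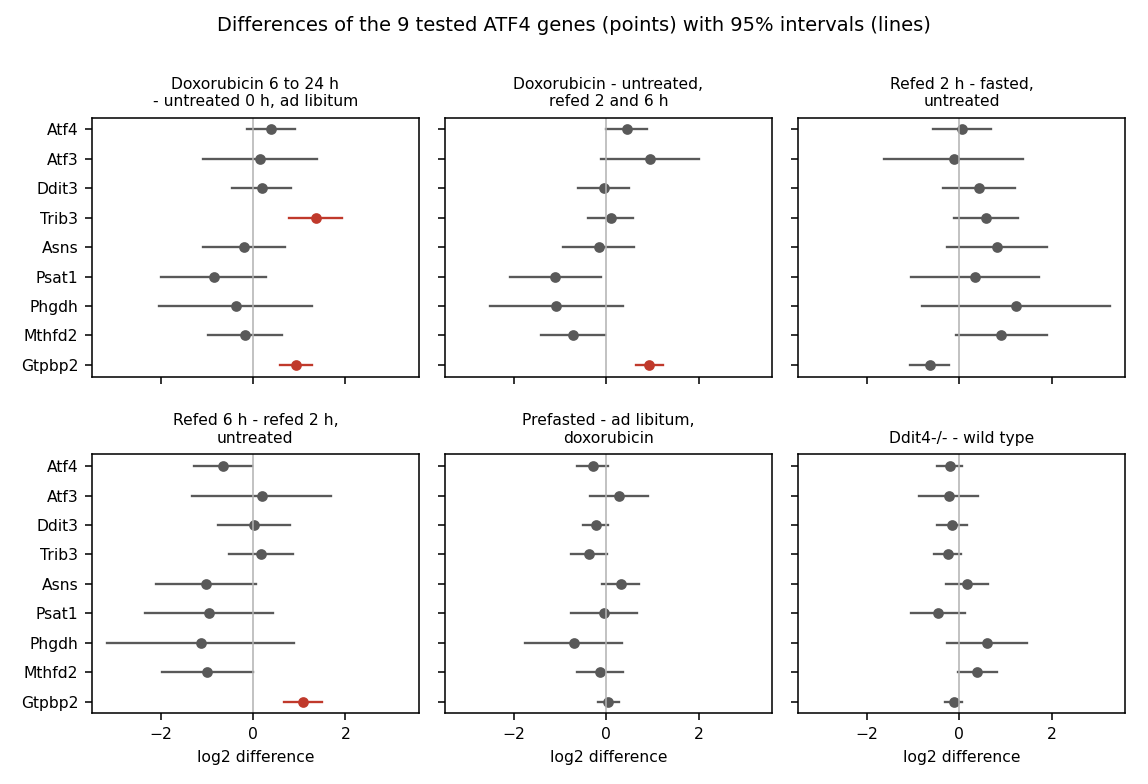
Log2 differences (points) of the 9 tested genes with their 95% intervals (lines) in 6 comparisons, each first group minus the second as named above its panel; red marks an adjusted p under 0.05. Gtpbp2 and Trib3 are red for doxorubicin in ad libitum mice, Gtpbp2 alone for doxorubicin in refed mice and for 6 h against 2 h of refeeding, and no gene for prefasting or genotype.

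The 10 genes did not move as one. Over the 23 libraries, Pearson's r on the log2 scale was 0.68 between Asns and Mthfd2 and 0.51 between Phgdh and Mthfd2, 0.54 between Atf3 and Ddit3, and -0.68 between Psat1 and Gtpbp2, -0.65 between Mthfd2 and Gtpbp2 and -0.55 between Asns and Gtpbp2. Atf4 itself had r between -0.10 and 0.43 with the other 9. These values describe libraries that share states and differ in depth. The genes most like the mean of the 10 were Pias4 (r = 0.82), Jund, Rbm8a, Sod1 and Etfb, down to 0.72. That mean followed mostly Chac1 (r = 0.73), which has too few reads to test, and Phgdh (0.66), whose values are uncertain, and had an r of -0.12 with Gtpbp2. Most like Gtpbp2 were Ip6k1 (0.91), Chd3, Btnl4, Specc1l and Ralgps2, most like Mthfd2 were Nars (0.82), Rpn1, Usp5, Psmc3 and Atf5, and most like Asns were Rdh13 (0.79), Ddx21, Zscan22, Snd1 and Mars1, these last 3 sets being looked up after the values were seen.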

How the data were processed

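RNA was sequenced from poly-A libraries that do not keep strand, as paired reads of 150 bases, per the labels' protocols; STAR, DESeq2, Trim Galore and the build mm10 are named in the submitters' processing notes. The deposited table gives, as the values show, gene counts divided by 1 size factor per library, a normalized signal; dividing by the smallest step recovered whole reads (within 0.01) for 100% of values. Differences were tested with limma 3.58.1 (trend) on log2(value + 1) for genes with a mean of at least 10. One fit held the 12 states and genotype over 23 libraries (10 residual degrees of freedom), and the pseudocount understates fold changes of scarce genes. Prefasting was fitted on 7 pairs (6 degrees of freedom). Adjusted p-values under 0.05 over 11939 genes count as passed. edgeR 4.0.16 and DESeq2 1.42.0 were run on the recovered reads, in R 4.3.3. The labels do not say how many animals a library holds, and p-values rest on the spread between the genotypes of a state. The model fits were tested on simulated data for some of the comparisons only. The read recovery, the correlations, the motif search and the figures were not tested in that way.

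The 10 genes and all lists were chosen with earlier results of these data known. All 10 are named; list genes are named by smallest p, at most 6 a list, and the genes most like a pattern are the 5 highest by r among genes with a mean of at least 50. The 2 comparisons that pool hours of doxorubicin, and the genes most like single members, were added after the data were seen. Positions are from GENCODE on GRCm38 and promoters from RefSeq.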

Additional observations from a re-analysis of the deposited data

How the results depend on the processing

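Under another scaling, another pseudocount, no filter or a stricter one, edgeR and DESeq2, the number of the 10 genes called did not change in any of the 16 comparisons. It changed when libraries were left out, and no direction of a called gene reversed. Leaving out the 3 libraries without Y-linked reads, which hold every untreated Ddit4-/- library but that of 6 h, made the count 0 for 6 h against 2 h of refeeding, 0 for doxorubicin in ad libitum mice at 6 h, 1 (Gtpbp2) at 12 h, 0 at 24 h, 0 over 6 to 24 h, 0 in refed mice at 2 h and 0 over 2 and 6 h; log2 differences stayed near those reported, such as 1.03 for Gtpbp2 over 6 to 24 h (adjusted p = 0.0901) and 1.86 for Trib3 at 6 h (0.143). Without the 4 libraries with conflicting titles it was 0 in refed mice at 2 h and 0 over 2 and 6 h. Without the 2 libraries with pancreatic transcripts it was 1 (Gtpbp2) in refed mice at 6 h. The cause was not tested, beyond fewer libraries and degrees of freedom. With each library left out in turn, the count ranged over 0 to 1 for 6 h of refeeding against fasting, 0 to 2 for 6 h against 2 h of refeeding (Atf4, lower at 6 h, and Gtpbp2 without the untreated wild-type 6 h library), 0 to 1 for doxorubicin in ad libitum mice at 6 h, 1 to 2 at 12 h, 0 to 1 at 24 h and 0 to 2 over 6 to 24 h, and 0 to 1 in refed mice at 2 h, at 6 h and over both hours. Chac1, Phgdh and Psat1 are limited by their reads (157, 935 and 1096 over all libraries). Not run were the 2 h ad libitum comparison without its only doxorubicin library and the late against early prefast comparison without the conflicting titles. The prefast fit without the pairs as a block gave 0 as well. Outside the prefast comparisons no separate fit with pairs as a block was run. Those fits held state and genotype together as factors, and the labels carry no replicate numbers.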
